A study of Mus musculus with 6 samples.

Results

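The T cell receptor β chain repertoires of 2 distant tumors were set against those of 2 spleens. These are 4 of the 6 libraries of the series. They were taken by their titles (distant tumor or spleen), and the number in the title, 1 or 2, was used to pair a tumor with a spleen. All libraries come from C57BL/6 mice that carried MO4 tumors in both hindlimbs. MO4 is a line of B16F10 melanoma, itself of C57BL/6 origin, that expresses the foreign antigen ovalbumin (OVA). Each hindlimb received 100000 cells under the skin on day 0. The right tumor was then treated with IFN-α-iPSC-pMCs, injected beside it at 1000000 cells a time (days 5, 6 and 7, then days 12 and 13). These are myeloid cells grown from induced pluripotent stem cells and made to produce interferon-α. The distant tumor is the left one, which received none of these cells. Tumor RNA was taken on day 14. The mice behind the distant tumors and the spleens were thus all treated on the other side, and no untreated mouse is part of the comparison. The series names 2 mice. The libraries hold only β chain transcripts, so the labelled tissues could not be checked against other marker genes.

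A β chain is built in a developing T cell by joining a variable (TRBV), a diversity and a joining (TRBJ) gene segment. Bases are trimmed and added at the joins, and this stretch encodes complementarity-determining region 3 (CDR3), the loop that meets the peptide held by an MHC molecule. T cells that descend from the same parent carry the same β chain, so a chain that takes many reads in a tissue may mark an expanded clone, and the spleen holds a broad sample of circulating and resident T cells. Here a clonotype is a set of reads with the same TRBV gene, the same TRBJ gene and the same CDR3 in amino acids, without a stop or frame mark. In RNA from whole tissue, fewer T cells of a clone and less receptor RNA per cell cannot be told apart. How many T cells each library came from is not given in the labels.

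The CDR3s printed next belong to leading clones of the distant tumors and are shown because these large clones were rare or absent in the spleens or, for the last, far smaller there. CDR3s longer than 14 residues are not printed, and such clonotypes are named by their genes. The first 4 are from distant tumor 1, the second of them also led distant tumor 2, and the last is from distant tumor 2.
TRBV12-1 with TRBJ1-2: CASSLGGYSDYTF
TRBV16 with TRBJ2-7: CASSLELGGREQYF
TRBV5 with TRBJ2-3: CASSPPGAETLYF
TRBV3 with TRBJ2-1: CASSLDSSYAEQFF
TRBV20 with TRBJ2-5: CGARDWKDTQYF

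Distant tumors 1 and 2 held 82142 and 42320 productive reads in 11201 and 10347 clonotypes. Spleens 1 and 2 held 96907 and 135599 productive reads in 64726 and 92233 clonotypes. In each library, 72.0% to 74.5% of the clonotypes had a single read. Where a clonotype had 0 reads, its share may still reach that of 3 reads, from 0.00221% in spleen 2 to 0.00709% in distant tumor 2. Without molecular identifiers, reads are not independent molecules, so all intervals and such floors cover counting error only.

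Much of the distant tumor reads lay in a small number of clones, while the spleen reads were spread thinly. Clonotypes of at least 1% of a library numbered 7 in distant tumor 1, with 35.9% of its reads, and 10 in distant tumor 2, with 20.5%. Neither spleen had any. At the other end, clonotypes under 0.01% held 18.4% and 27.6% of the reads of the distant tumors and 95.2% and 97.0% of those of the spleens.

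**Figure D1:**
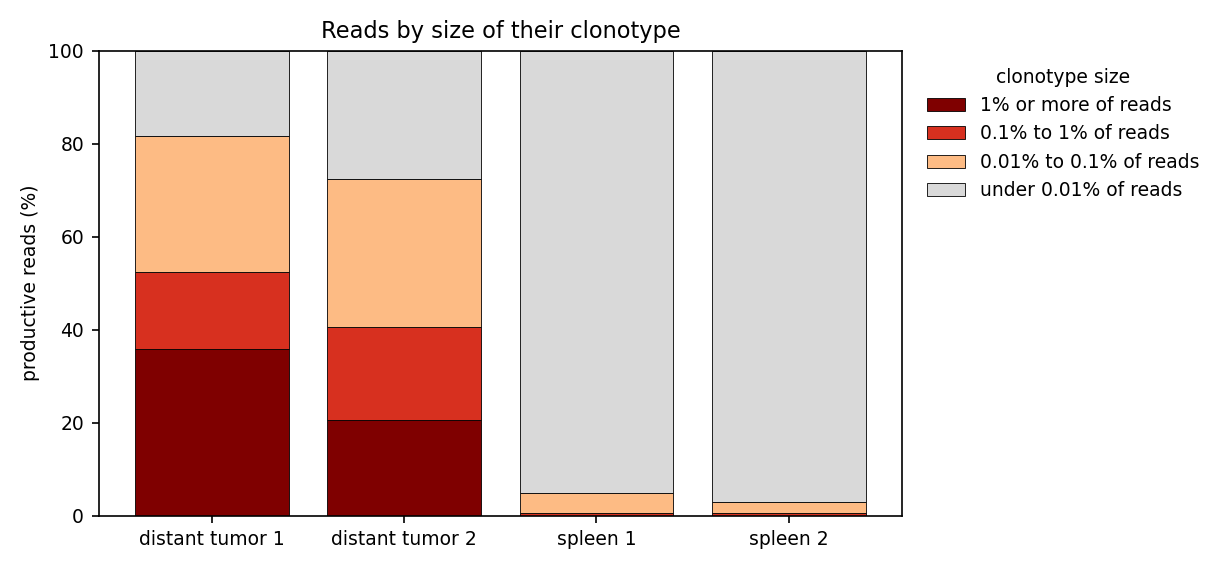
Share of productive reads (%, vertical axis) in each of the 4 libraries, stacked by the size of the clonotype that the reads belong to. The dark segment of clonotypes at 1% or more reaches 35.9% and 20.5% in distant tumors 1 and 2 and is absent from both spleens, whose columns are almost wholly clonotypes under 0.01%.

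To compare at equal depth, 42320 productive reads were drawn from every library. The largest clonotypes that together reached 50% of these reads numbered 50.3 and 247 in distant tumors 1 and 2, and 12571 and 14635 in spleens 1 and 2 (means over 100 draws). The tumors differed from each other here more than the spleens did. Clonotypes at this depth numbered 6972 and 10347 in the tumors against 33731 and 35795 in the spleens, and Shannon entropy in natural-log units was 6.06 and 7.37 against 10.3 and 10.4. Tumor minus spleen, entropy differed by -4.22 for number 1 and by -3.01 for number 2. The groups did not overlap in any of these 3 measures. An exact permutation test (two-sided, 2 libraries against 2) gave p = 0.333 for each, which is the smallest p that it allows, so it cannot reach a threshold of 0.05.

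The most abundant clone of distant tumor 1 was the TRBV12-1 clonotype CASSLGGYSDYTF. It had 15201 reads there, or 18.5%. Distant tumor 2 and spleen 1 had 0 reads of it and spleen 2 had 1. Set against a floor of 3 reads, its share was at least 5978-fold higher than in spleen 1. It alone supplied 75.7% of the TRBV12-1 reads of that tumor and 76.9% of its TRBJ1-2 reads. A TRBV29 clonotype with TRBJ2-1 and a CDR3 of 15 residues followed with 4949 reads (6.02%) in that tumor. It had no read in distant tumor 2 and 2 reads in each spleen. With so low a spleen count its ratio to spleen 1 is loosely bounded, at 2919-fold with an exact 95% counting interval of 808 to 24112.

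Distant tumor 2 was led by the TRBV16 clonotype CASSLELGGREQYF with 2494 reads, or 5.89%. The same receptor was the third of distant tumor 1, with 4461 reads or 5.43%. It had 6 reads in spleen 1 and 5 in spleen 2, so its share was 877-fold higher than in the spleen of its own number in tumor 1 (95% counting interval 403 to 2391) and 1598-fold higher in tumor 2 (684 to 4927). No other clonotype among the 10 most abundant of either distant tumor was shared in this way: the other 9 of each had 0 reads in the other distant tumor. The next of distant tumor 2, a TRBV5 clonotype with TRBJ2-3, had 993 reads (2.35%) there and 1 read in spleen 2. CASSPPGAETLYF and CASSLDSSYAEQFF, with 1639 and 1112 reads in distant tumor 1, had 0 reads in spleen 1, so their shares were at least 645-fold and 437-fold higher. The 10 most abundant used 7 TRBV and 6 TRBJ genes in distant tumor 1 and 6 TRBV and 10 TRBJ genes in distant tumor 2. TRBV5 appeared in 3 and 2 of them.

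Some leading tumor clones were also among the largest of the spleen. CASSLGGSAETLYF (TRBV17, TRBJ2-3) had 1107 reads in distant tumor 1 and 124 in spleen 1, where it was among the 3 most abundant, a 10.5-fold higher share in the tumor (95% counting interval 8.74 to 12.8). A TRBV20 clonotype with TRBJ1-2 had 661 reads in distant tumor 2 and 156 in spleen 2, 13.6-fold higher (11.4 to 16.3). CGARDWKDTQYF (TRBV20, TRBJ2-5) had 684 and 105, 20.9-fold higher. None of these 3 had a read in the distant tumor or the spleen of the other number. This did not hold for a TRBV13-2 clonotype with TRBJ2-1 and a CDR3 of 14 residues. It had 532 reads in distant tumor 2 and 146 in spleen 2, 11.7-fold higher (9.70 to 14.1). In number 1 it was lower in the tumor, with 15 reads in spleen 1 and 0 in distant tumor 1 (95% counting interval of the ratio 0 to 0.329). The most abundant clone of either spleen showed no such gap to the tumor of its number. The most abundant of spleen 1, a TRBV14 clonotype with TRBJ1-6, had 236 reads there and 192 in distant tumor 1 (ratio 0.960, 95% counting interval 0.789 to 1.17). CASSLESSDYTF (TRBV15, TRBJ1-2), the most abundant of spleen 2, had 411 reads there and 105 in distant tumor 2 (ratio 0.819, 0.654 to 1.02). The second of spleen 1, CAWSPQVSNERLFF (TRBV31, TRBJ1-4), was lower in the tumor, with 167 reads there and 18 in distant tumor 1 (0.127, 0.0736 to 0.207). In number 2 it had 22 spleen and 16 tumor reads (2.33, 1.14 to 4.65). The second of spleen 2, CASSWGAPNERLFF (TRBV14, TRBJ1-4), had 195 reads there and 45 in distant tumor 2 (0.739, 0.522 to 1.03).

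Over all clonotypes with at least 10 reads in a tumor and its spleen together, most of those tested were higher in the tumor. For number 1, 1053 of 1336 clonotypes (78.8%) were higher in distant tumor 1 than in spleen 1 and 165 (12.4%) were lower (two-sided Fisher's exact test, adjusted by Benjamini-Hochberg, threshold 0.05). For number 2, 673 of 938 (71.7%) were higher in distant tumor 2 and 51 (5.44%) lower. At equal depth 568 were higher for number 1, out of a smaller tested set than the 1336, since fewer clonotypes then reach 10 reads. Shares at least 10-fold higher were found for 427 of the 1053 and 528 of the 673, with 0 spleen reads set to the floor of 3. These 2 counts depend on library depth and cannot be compared between the numbers. In number 2, 10 tumor reads with 0 spleen reads already gave 10.7-fold, so every enriched clonotype with 0 spleen reads passed. In number 1, 11 tumor reads with 0 spleen reads gave 4.33-fold. Fisher's test compares reads of 2 libraries and holds no spread between mice. Clonotypes of 10 or more reads numbered 1083 and 598 in distant tumors 1 and 2 and 230 and 281 in spleens 1 and 2, so the tested set leans to clones that are large in the tumor.

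The enriched clonotypes held 79.3% of the reads of distant tumor 1 and 1.42% of those of spleen 1, and 61.8% of distant tumor 2 and 2.11% of spleen 2. Spleen 1 had 0 reads of 708 of the 1053, and spleen 2 had 0 reads of 267 of the 673. Detection in the spleen of the same number was thus 32.8% for number 1 and 60.3% for number 2, and detection in the other spleen 15.7% and 16.6%. Among those with more than 3 spleen reads, 98 and 206 clonotypes, the median ratio was 5.31 and 7.69.

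**Figure D2:**
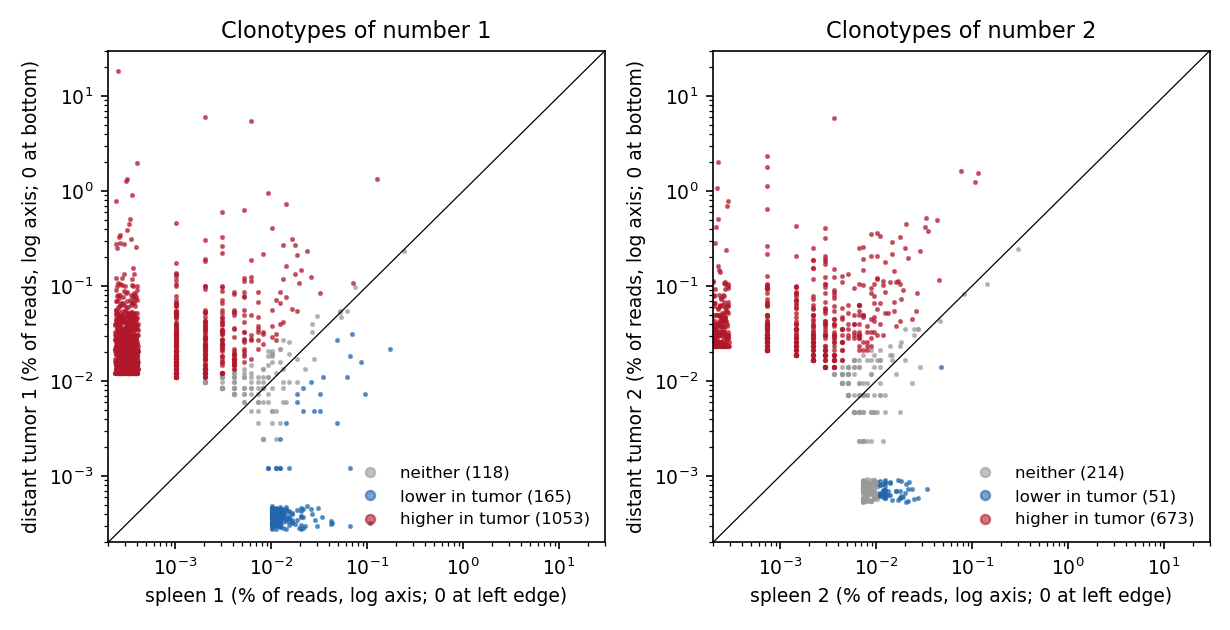
Share of reads of each tested clonotype in the distant tumor (vertical, %, log axis) against the spleen of the same number (horizontal, %, log axis), with number 1 on the left and number 2 on the right; a share of 0 is drawn at the edge with a small random shift. Of the tested clonotypes, 1053 and 673 lie above the diagonal as higher in the tumor, many of them in the column at the left edge where the spleen has 0 reads.

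Tumor reads fell more often into clonotypes of the spleen with the same number. At equal depth, spleen 1 held clonotypes that carried 27.8% of the reads of distant tumor 1, and spleen 2 held clonotypes that carried 22.3% (means over 20 draws). For distant tumor 2 the values were 34.9% in spleen 2 and 13.8% in spleen 1. Shared clonotypes numbered 528 against 216 for distant tumor 1 and 796 against 332 for distant tumor 2. At full depth the read share of distant tumor 1 turned around, to 34.7% in spleen 1 and 41.3% in spleen 2, where the single spleen 2 read of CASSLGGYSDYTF brings in the 18.5% of tumor reads of that clone. By number of shared clonotypes the order held at full depth, with 839 against 490 and 1364 against 510.

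In both distant tumors at once, 28 clonotypes had at least 10 reads. They made up 7.37% and 8.30% of the reads of distant tumors 1 and 2, and 0.647% and 0.148% of those of spleens 1 and 2. Of these 28, 22 were higher than the spleen of the same number in both comparisons, 5 in one and 1 in neither. The 28 were chosen by their tumor reads, so most were likely to be called higher, and these counts do not test them. Over all tested clonotypes 78.8% were higher for number 1 and 71.7% for number 2. Both spleens also held 18 of the 28, 1 spleen held 5, and neither held 5. TRBV16 was the gene of 6 of the 28 and TRBJ2-7 of 11. Both counts include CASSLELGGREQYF and 4 clonotypes 1 residue away from it, so they are not counts of separate receptors. Over all clonotypes of distant tumors 1 and 2, each counted once, TRBV16 made up 9.65% and 10.6% and TRBJ2-7 18.8% and 20.6%. Next are 3 examples of the 28, chosen after their values were seen. The first and second show a large excess over the spleens, and the last about the spleen share.
TRBV20 with TRBJ2-5: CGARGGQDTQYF
TRBV13-2 with TRBJ1-1: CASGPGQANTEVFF
TRBV1 with TRBJ2-7: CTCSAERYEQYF

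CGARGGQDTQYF had 281 and 182 reads in distant tumors 1 and 2, 0 in spleen 1 and 2 in spleen 2. A second TRBV16 clonotype with TRBJ2-7, of 15 residues, had 223 and 61 tumor reads against 13 and 21 spleen reads, 20.2-fold (95% counting interval 11.6 to 38.6) and 9.31-fold (5.59 to 16.1) higher. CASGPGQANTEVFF had 73 and 87 tumor reads against 3 and 2 spleen reads. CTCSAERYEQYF stood apart from these in its ratios. With 81 and 15 tumor reads and 72 and 37 spleen reads its ratios were 1.33 (0.954 to 1.85) and 1.30 (0.662 to 2.42), so no difference from the spleens was detectable.

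Around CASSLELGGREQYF stood 4 of the 28 that differ from it by 1 residue. With positions counted from 1 at the first CDR3 residue, they are R10L, R10G, G9E and L5V. The R10L form, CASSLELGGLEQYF, had 34 and 216 reads in distant tumors 1 and 2 and 0 in both spleens, which is 8.66% of the reads of its neighbour in distant tumor 2. The other 3 had between 11 and 28 reads in each tumor and at most 1 in a spleen. Copies with a sequencing or PCR error and separate clones cannot be told apart here, and this was not tested. Near neighbours were counted as clonotypes 1 residue away from one at least 20 times as abundant, which must itself have at least 20 reads. Clonotypes of 10 or more reads numbered 1083 and 598 in distant tumors 1 and 2 and 230 and 281 in spleens 1 and 2. The spleens could thus hold few near neighbours, and the shares cannot be compared apart from clone size. They made up 19.0% and 13.3% of clonotypes in distant tumors 1 and 2 and 0.413% and 0.335% in spleens 1 and 2. In reads they were 5.22%, 4.76%, 0.327% and 0.253%. CDR3s without the usual first cysteine or last phenylalanine followed the same split, at 11.7% and 10.98% of tumor clonotypes and 3.33% of those of each spleen. They held 1.804% to 2.85% of the reads of the 4 libraries, and there the groups overlapped.

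TRBV genes taken as wholes differed less than single clones. None of 23 (0%) passed in edgeR's quasi-likelihood test at a Benjamini-Hochberg adjusted p of 0.05, while 7 (30.4%) fell under 0.05 before adjustment. DESeq2 called 4 higher and 3 lower, and TMM scaling in edgeR 1 higher. In 14 of the 23 (60.9%) the 2 groups did not overlap, 3 (13%) with the tumors higher and 11 (47.8%) with the tumors lower. With TRBV use scaled by the library total, a large clone lowers the share of every other gene: the median log2 difference over the 23 genes was -0.17, and 0.23 with TMM scaling.

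Among the genes with lower shares in both tumors, 5 had the same edgeR adjusted p of 0.0728. These were TRBV21 and TRBV24, which are rare, and TRBV31, TRBV1 and TRBV15. TRBV31 lies downstream of the constant genes on the opposite strand (GRCm38 chromosome 6, 41557691 to 41558452, minus strand) and joins by inversion. Its reads made up 1.26% and 2.63% of distant tumors 1 and 2 and 6.13% and 5.13% of spleens 1 and 2. On the log2 scale it was lower by a difference of -1.54 ± 0.43 (SE), with an edgeR adjusted p of 0.0728. With the number as a block the edgeR adjusted p was 0.0249, and it was 0.00246 when each clonotype counted once and 0.0316 with the 10 leading clonotypes per library left out. It stayed above the threshold at 0.0511 with neighbours merged before each clonotype was counted once, 0.101 with TMM scaling, 0.233 in the fit of all 6 libraries, and 0.676 and 0.409 without spleen 1 or spleen 2. TRBV1, the gene farthest upstream (chromosome 6, 40891229 to 40891885), took 2.95% and 4.01% of tumor reads and 8.51% and 7.16% of spleen reads (log2 difference -1.17 ± 0.34, edgeR adjusted p = 0.0728; 0.0206 with each clonotype counted once, 0.0511 with neighbours merged first and 0.206 with the block). TRBV15 took 2.58% and 2.66% against 4.71% and 5.89% (-1.02 ± 0.31, edgeR adjusted p = 0.0728).

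TRBV16 (chromosome 6, 41151740 to 41152230) stood the other way. It took 11.5% and 15.2% of the reads of distant tumors 1 and 2 and 7.04% and 6.94% of those of spleens 1 and 2 (log2 difference 0.93 ± 0.35, edgeR adjusted p = 0.143). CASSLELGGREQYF supplied 47.4% and 38.6% of these tumor reads. With each clonotype counted once the shares were 9.65% and 10.6% against 6.94% and 6.99% (edgeR adjusted p = 0.0226), and this count includes the near neighbours of that clone. With neighbours merged first it was 0.0511. TMM scaling gave an edgeR adjusted p of 0.0156 and a block on the number 0.667. TRBV30, a rare gene, had 0.257% and 0.406% against 0.137% and 0.211%, with an edgeR adjusted p of 0.145 that became 0.0147 with the block. The block thus called 2 genes, TRBV30 higher and TRBV31 lower.

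Of the 10 genes with the largest log2 difference among those whose groups did not overlap, the other 5 had lower tumor shares and did not pass the test. These were TRBV21, the rarest, with 0.00122% and 0.00473% against 0.0237% and 0.0192%, TRBV24, TRBV4, TRBV13-3 and TRBV19. Their edgeR adjusted p ran from 0.0728 for TRBV21 and TRBV24 to 0.312 for TRBV4. TRBV5 and TRBV12-1 are named here after their values were seen. TRBV5 had 8.91% and 14.0% against 7.81% and 7.66%. TRBV12-1 had 24.4% in distant tumor 1, above both spleens at 5.27% and 5.37%, and 3.34% in distant tumor 2, below them. TRBV12-1 and TRBV12-2, like the TRBV13 genes, are close relatives between which reads could be split.

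**Figure D3:**
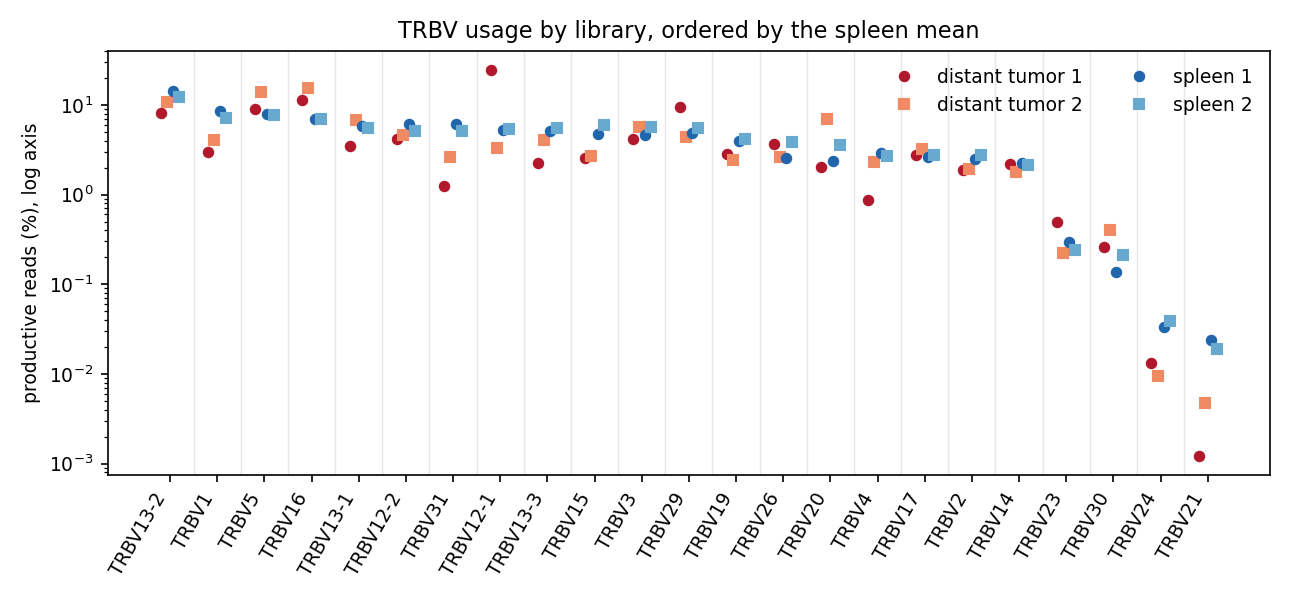
Share of productive reads (%, log axis) of each of the 23 TRBV genes in the 4 libraries, 1 point per library, with genes in the order of their spleen mean. The red and orange tumor points lie below the blue spleen points for TRBV31 and TRBV1 and above them for TRBV16, and for TRBV12-1 the tumors stand on both sides at 24.4% and 3.34%.

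Of the 12 TRBJ genes, 2 (16.7%) passed edgeR's test, TRBJ1-5 lower (8.33% of the genes) and TRBJ1-2 higher (8.33%). The groups did not overlap in 6 of the 12 (50%), 2 with higher and 4 (33.3%) with lower tumor shares. Their germline segments are printed with the whole codons of their CDR3 end in capitals, from GENCODE M21 transcripts on GRCm38, as the segments that the called genes add to a chain. TRBJ1-2 lies at chromosome 6, 41534001 to 41534048, and TRBJ1-5 at 41535084 to 41535133, both on the plus strand.
TRBJ1-2: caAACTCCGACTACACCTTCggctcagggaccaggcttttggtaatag
TRBJ1-5: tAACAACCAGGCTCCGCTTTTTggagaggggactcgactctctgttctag

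TRBJ1-5 was used in 1.46% and 1.12% of the reads of distant tumors 1 and 2 and in 2.59% and 2.34% of those of spleens 1 and 2. The groups did not overlap, and the log2 difference was -0.94 ± 0.23 (edgeR adjusted p = 0.00600; 0.000218 with the number as a block). With each clonotype counted once the shares were 2.15% and 1.59% against 2.72% and 2.54%, and the edgeR adjusted p was 0.329, or 0.0223 with neighbours merged first. With the 10 leading clonotypes per library left out the shares were 2.38% and 1.41% against 2.62% and 2.37%. The groups then overlapped, with a log2 difference of -0.39 (edgeR adjusted p = 0.492). Without distant tumor 1 it was 0.0675, without spleen 1 0.968, without spleen 2 0.970 and with TMM scaling 0.264. TRBJ1-2 took 24.1% and 6.31% of tumor reads and 5.15% and 5.59% of spleen reads (log2 difference 1.50 ± 0.43, edgeR adjusted p = 0.0116). Most of it was 1 clone of distant tumor 1. With the 10 leading clonotypes per library left out the shares were 9.05% and 5.97% against 5.20% and 5.23%, with an edgeR adjusted p of 0.169, and with the block it was 0.473. With each clonotype counted once it was 0.329. Without distant tumor 1 the edgeR adjusted p was 0.167, without spleen 1 0.968 and without spleen 2 0.970. Counts of calls were 1 with the block, 0 with TMM scaling and 4 with DESeq2.

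The other TRBJ genes with groups apart among the 4 largest differences were TRBJ2-4, at 4.96% and 8.43% against 10.04% and 9.43%, and TRBJ1-3, at 2.81% and 4.14% against 4.81% and 5.06% (edgeR adjusted p = 0.550 for both). Outside these 4, TRBJ2-5 was lower with groups apart, at 7.02% and 11.7% against 13.1% and 12.9%. TRBJ1-6 was higher, at 4.73% and 3.85% against 3.45% and 2.97% (log2 difference 0.42, edgeR adjusted p = 0.550). Its difference grew with the 10 leading clonotypes per library left out, to 5.596% and 4.85% against 3.13% and 2.86%. TRBJ1-6 was then the 1 TRBJ gene that passed (log2 difference 0.802, edgeR adjusted p = 0.0376). TRBJ2-7 was the most used gene of distant tumor 2 and of both spleens, at 22.6%, 19.3% and 19.9%, and had 18.1% in distant tumor 1. It did not separate the groups.

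**Figure D4:**
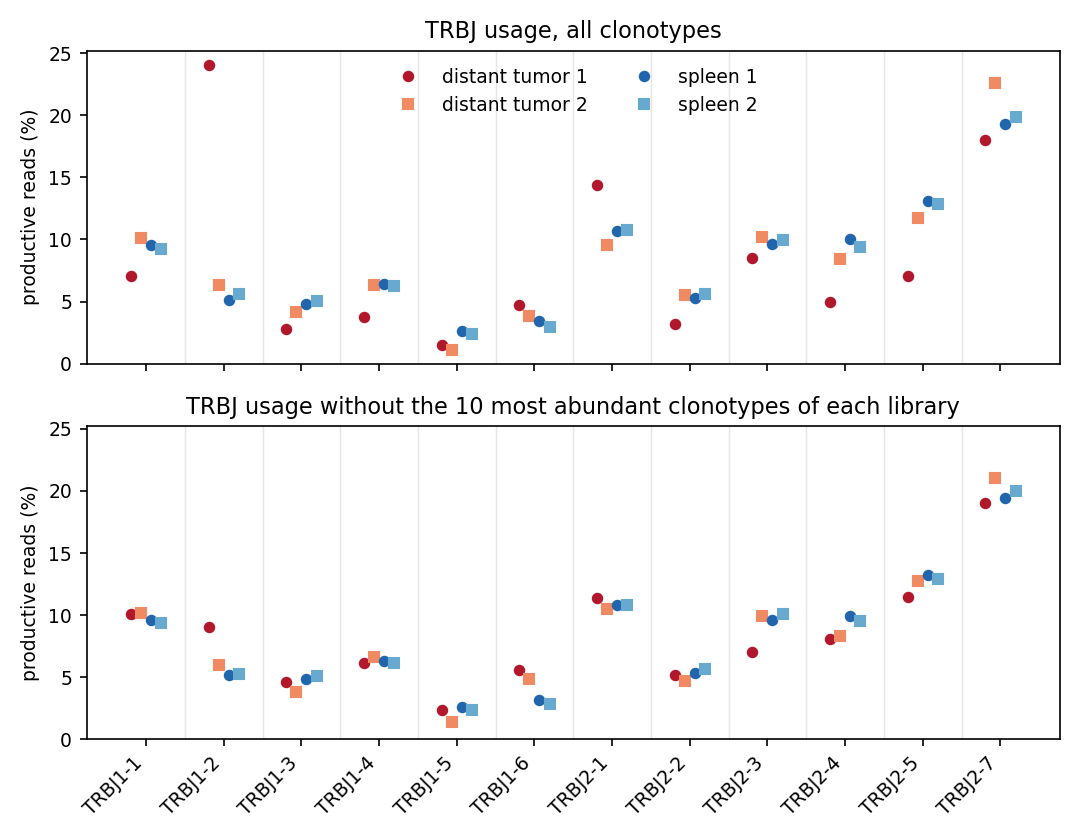
Share of productive reads (%) of the 12 TRBJ genes in the 4 libraries, 1 point per library, with all clonotypes above and the 10 leading clonotypes per library left out below. The TRBJ1-2 point of distant tumor 1 falls from 24.1% to 9.05% between the panels, and TRBJ1-5 rises from 1.46% and 1.12% to 2.38% and 1.41% in the tumors.

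Pairs of TRBV and TRBJ genes showed the large clones most directly. Of 243 pairs tested, 0 (0%) passed edgeR's test and 58 (23.9%) fell under 0.05 before adjustment. By DESeq2, run without the count filter and so on 275 pairs, 10 were higher and 3 lower. The groups did not overlap in 149 pairs (61.3%), 139 (57.2%) lower in the tumors and 10 (4.12%) higher, and the median log2 difference over all 243 was -0.69 (0.06 with TMM scaling). TRBV31 was below 0 in 12 of its 12 pairs, with a median of -1.68, and so was TRBV1 with a median of -1.13. TRBV13-3 was also below 0 in 12 of 12, with -1.07. Over all pairs, 184 of 243 were below 0.

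TRBV16 with TRBJ2-7 took 7.75% and 9.20% of the reads of distant tumors 1 and 2 and 1.45% and 1.47% of those of the spleens (log2 difference 2.54 ± 0.48, edgeR adjusted p = 0.111). This is the pair of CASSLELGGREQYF, which made up 70.1% and 64.1% of it in the tumors. With the largest clonotype of the pair in each library and its 1-residue neighbours left out, 1.82% and 2.15% remained in distant tumors 1 and 2 and 1.43% and 1.45% in the spleens. The pair thus kept its order but the difference was much smaller.

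TRBV5 with TRBJ2-3 was the second such pair, at 3.32% and 4.55% against 0.797% and 0.859% (2.25 ± 0.47, edgeR adjusted p = 0.111). Here the tumors had different leading clones, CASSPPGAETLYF with 60.1% of the pair in tumor 1 and a clonotype of 15 residues with 51.6% in tumor 2. Without these and their 1-residue neighbours the pair held 1.18% and 1.99% of tumor reads and 0.777% and 0.840% of spleen reads. The other 4 with the highest differences were TRBV12-1 with TRBJ1-6, TRBV20 with TRBJ2-5, TRBV13-1 with TRBJ1-6 and TRBV26 with TRBJ2-2, with log2 differences of 2.95, 2.22, 1.52 and 1.43. Their edgeR adjusted p ran from 0.112 to 0.232. With the largest clonotype and its neighbours left out in the same way, 3 of these 4 no longer had both tumors above both spleens. TRBV12-1 with TRBJ1-6 then had 0.196% and 0.0520% against 0.0929% and 0.118%, and TRBV20 with TRBJ2-5 had 0.183% and 1.14% against 0.257% and 0.387%. TRBV26 with TRBJ2-2 turned around, to 0.101% and 0.0992% against 0.114% and 0.208%. TRBV13-1 with TRBJ1-6 kept its order, at 0.203% and 0.279% against 0.183% and 0.145%.

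The 6 lowest pairs among those with at least 0.5% in a library were led by TRBV31 with TRBJ2-4, at 0.0877% and 0.0780% against 0.536% and 0.427% (log2 difference -2.53 ± 0.36, edgeR adjusted p = 0.111). TRBV31 with TRBJ2-7 and with TRBJ2-1 had -2.21 and -2.01, TRBV1 with TRBJ2-5 had -2.17, and TRBV12-1 with TRBJ2-3 had -1.94. TRBV16 with TRBJ2-4 was at 0.157% and 0.201% against 0.794% and 0.763% (-2.12 ± 0.37, edgeR adjusted p = 0.111). Of the 12 pairs of TRBV16, 10 had a log2 difference below 0, with a median of -0.64. The groups did not overlap in 8 of them, 7 with lower tumor shares and 1, that with TRBJ2-7, with higher.

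CDR3 lengths were narrower in the distant tumors. Of 13 lengths tested, 5 (38.5%) passed edgeR's test, all with lower shares in the tumors and at the short or long end: 7, 8, 11, 17 and 18 residues. Before adjustment 6 (46.2%) fell under 0.05, and in 9 (69.2%) the groups did not overlap, 1 with higher and 8 with lower tumor shares. The median log2 difference over the lengths was -0.56, and -0.22 with TMM scaling, where 3 lengths passed, all lower. DESeq2, run without the count filter and so on 30 lengths, called 2 lengths, both higher. CDR3s of 11 residues or fewer made up 3.34% and 3.32% of the reads of distant tumors 1 and 2 and 5.27% and 5.38% of those of spleens 1 and 2. CDR3s of 17 or more made up 1.02% and 1.32% against 2.47% and 2.39%. The mean length was 13.8 ± 0.105 residues in the tumors and 13.8 ± 0.0284 in the spleens (SD, n = 2 each). It was lower in the tumor than in the spleen for number 1, by -0.0988 residues, and higher for number 2, by 0.0893.

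Length 18 had 0.146% and 0.158% against 0.411% and 0.369% (log2 difference -1.36 ± 0.20, edgeR adjusted p = 0.0240). Length 17 was at 0.823% and 1.16% against 1.98% and 1.92% (-0.98 ± 0.22, edgeR adjusted p = 0.0256), and length 11 at 2.66% and 2.28% against 4.11% and 4.21% (-0.75 ± 0.16, edgeR adjusted p = 0.0245). These shares did not overlap between the groups. Lengths 7 and 8 rested on few reads. Length 7 had 5 and 2 reads in the tumors against 31 and 39 in the spleens, and length 8 had 9 and 9 against 63 and 115. With each clonotype counted once their log2 differences were -0.19 and -0.14 (edgeR adjusted p = 0.865 for both). With the number as a block, 3 lengths passed, 7 and 8 among them with an edgeR adjusted p of 0.0499 each, while for 11, 17 and 18 it was 0.153, 0.0684 and 0.0656. With the 10 leading clonotypes per library left out 0 passed, and the log2 difference of length 11 went to -0.21 (edgeR adjusted p = 0.544), while lengths 17 and 18 stayed lower at -0.49 and -0.85 (0.0519 for both). Without spleen 1 or spleen 2 the count was 0 and without distant tumor 1 or 2 it was 9 and 14.

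**Figure D5:**
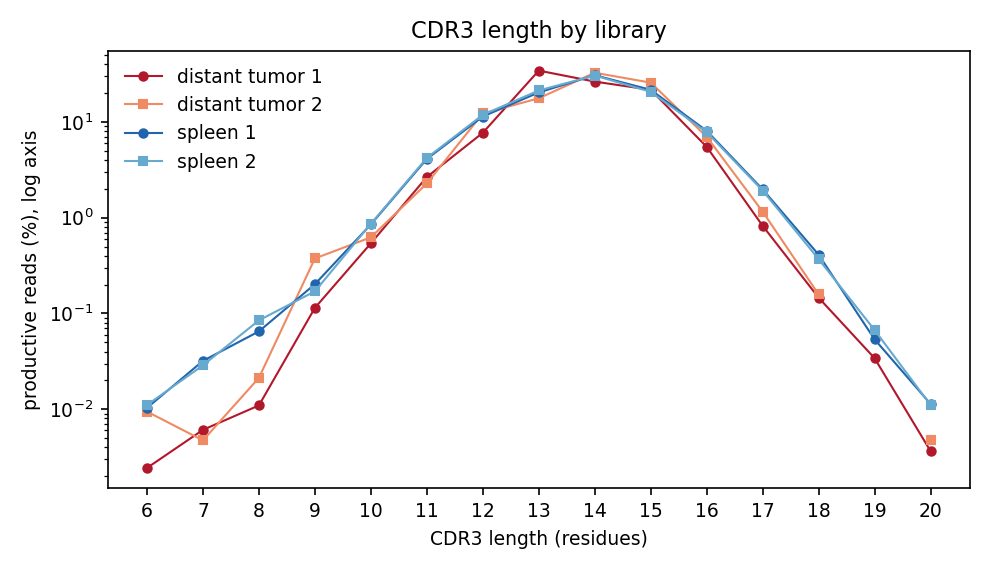
Share of productive reads (%, log axis) by CDR3 length in residues, 1 line per library; a length with 0 reads has no point. The tumor lines run below the spleen lines at 11 residues and at 17 and 18, and distant tumor 1 peaks at 13 residues, the length of its largest clone, where the other 3 libraries peak at 14.

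In the middle of the CDR3, with 4 residues taken off each end, leucine was the 1 residue of 20 (5%) that passed edgeR's test. It made up 11.7% and 7.33% of middle residues in distant tumors 1 and 2 and 5.46% and 5.70% in spleens 1 and 2 (log2 difference 0.77 ± 0.21, edgeR adjusted p = 0.0222). The groups did not overlap for 8 of the 20 residues (40%), leucine among them, and 6 of the 8 (30% of the 20) had lower tumor shares. With the block the edgeR adjusted p was 0.485, with TMM scaling 0.330, and without spleen 1 or spleen 2 0.993 and 0.996. With each clonotype counted once it was 0.116. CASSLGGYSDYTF and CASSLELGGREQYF both have leucine at the first middle position. The germline ends of their TRBV genes also have leucine there, as do TRBV3, TRBV12-2, TRBV15, TRBV26, TRBV29 and TRBV31. Of all these genes, TRBV16 had higher shares in both tumors than in both spleens, and TRBV12-2, TRBV15 and TRBV31 had lower ones. For the rest the groups overlapped. Whether middle leucine followed TRBV use was not tested. With the 10 leading clonotypes per library left out the log2 difference of leucine was 0.16 (edgeR adjusted p = 0.0328), and with 3 residues taken off each end it was 0.76 (0.706).

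Of the other CDR3 features, 4 separated the groups by reads. CDR3s with 2 adjacent glycines held 42.1% and 31.7% of tumor reads and 25.4% and 25.0% of spleen reads, and 26.1% and 27.3% against 25.4% and 25.2% with the 10 leading clonotypes per library left out. The mean net charge of the middle was -0.331 and -0.426 against -0.473 and -0.457, and mean hydropathy on the Kyte-Doolittle scale was -0.712 and -1.09 against -1.17 and -1.15. With those left out the charges were -0.451 and -0.465 against -0.475 and -0.457, and the groups overlapped. Hydropathy was then -1.13 in both tumors against -1.17 and -1.15, and its groups stayed apart. A cysteine inside the CDR3 was present in 3.77% and 5.05% of tumor reads and 9.35% and 8.15% of spleen reads. Between 97.4% and 97.8% of TRBV1 reads carried one, and CDR3s of other TRBV genes with one made up, of all reads, 0.885%, 1.13%, 1.06% and 1.17% in the same order. Residues F, I, L, M, V, W, Y or C at both positions 6 and 7, counted from the first CDR3 residue and called hydrophobic here, were found in 1.001% and 1.45% of tumor reads against 1.28% and 1.27%, and the groups overlapped. With the leading clonotypes left out this share was 1.63% and 1.83% against 1.29% and 1.29%, with the tumors higher. Residues outside the germline ends averaged 3.997 and 4.26 against 4.10 and 4.12 over reads, and the groups overlapped. With the leading clonotypes left out they averaged 4.30 and 4.32 against 4.11 and 4.13, with the tumors higher. With each clonotype counted once they averaged 6.13 and 5.79 against 4.38 and 4.42, with the tumors higher. CDR3s without the usual first cysteine or last phenylalanine count as wholly outside the germline at that end, and they were commoner among tumor clonotypes. The clonotypes enriched over spleen, with neighbours merged and each counted once, stood the other way. They averaged 3.74 in number 1 and 3.60 in number 2, against 4.38 and 4.42 over all spleen clonotypes. These sets differ in clone size. Each enriched clonotype had at least 10 reads in tumor and spleen together. Before merging, 72.9% and 73.6% of the clonotypes of spleens 1 and 2 had a single read. Over the 7 features by reads, the exact permutation test (two-sided) gave p = 0.333 for the 4 whose groups did not overlap and p = 1 for the others, and 0.583 and 1 after Benjamini-Hochberg adjustment.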

How the data were processed

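Per the labels' protocols, total RNA was made into double-stranded cDNA with an adaptor at its 5′ end, the β chain was amplified by nested PCR from the constant region, and libraries were read on a MiSeq with 300 bp paired reads. No molecular identifiers are named. The deposited counts are whole reads per TRBV, TRBJ and CDR3, not normalized. The deposited percent values are the authors' read shares of unmarked sequences, rounded to 2 decimals, and recomputed shares differed from them by less than 0.005 percentage points. No aligner, V and J caller or germline reference is named in the sources used here. Of the reads, 4.47% to 6.62% carried a stop or frame mark and were left out.

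Reads per gene, pair, length or middle residue were tested with edgeR 4.0.16 (R 4.3.3; library-total scaling, filterByExpr, 2 residual degrees of freedom), and DESeq2 1.42.0 served as an alternative, with Benjamini-Hochberg adjustment within each kind. Clonotypes were tested by Fisher's exact test with scipy 1.17.1. The tests were tested on simulated data. For pairs, 40 of 242 were changed, and edgeR made 0 false calls. At a dispersion (spread between libraries) of 0.05 it recovered 52.5% of 2-fold and 97.5% of 4-fold changes. At a dispersion of 0.3 it recovered 0% and 7.5%, so 0 called pairs need not mean that no pair differed. Positions and germline ends are those of GENCODE M21, GRCm38. Since the series names 2 mice, libraries with the same number were taken as the same mouse. TRBV deviations from the group means correlated at 0.0762 over 21 genes between same-numbered libraries. Nothing else in the labels ties the libraries to separate animals, so edgeR's p-values measure the spread between these libraries. That spread is estimated in part over all features of a kind together, so these p-values rest on more than the 2 residual degrees of freedom. A single gene's own spread over 4 libraries would bear less. Fisher's p-values hold no spread between libraries.

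Named items were the TRBV and TRBJ genes called, or else the 10 and 4 with the largest log2 difference whose groups did not overlap, the 6 highest and 6 lowest pairs with at least 0.5% in a library, and the leading clonotypes: the top 10 of each tumor, the top 3 of each spleen, the top 5 of each tumor with 0 reads in its spleen, and up to 15 with 10 reads in both tumors. Members and lists were chosen with earlier results of these data known. Alternatives covered scaling, filters, the block, left-out libraries, clonotypes counted once or at least 2 reads, top clonotypes left out, equal depth and merged variants. Merged variants, the minimum of 2 reads, the share without TRBV1 and the spleen of the other number were added after seeing the data. The treated tumors entered an alternative fit of all 6 libraries and are otherwise not used here.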

Additional observations from a re-analysis of the deposited data

How the results depend on the processing

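With 2 libraries a group the precision is limited by their number, and a clonotype with 0 reads in distant tumor 2 may still hold up to 0.00709%. Of the values for a whole comparison, 94 of the alternatives left the value as it was, 73 moved it and 2 reversed it. For single named genes, pairs, lengths and residues the counts were 337 on the same side of the threshold, 66 newly past it, 67 no longer past it and 4 reversed. The fits gave 0 TRBV, 2 TRBJ, 0 pair, 5 length and 1 residue calls. TMM scaling gave 1 TRBV, 0 TRBJ, 3 length and 0 residue calls, and DESeq2 gave 7 TRBV, 4 TRBJ, 13 pair, 2 length and 5 residue calls. The fit of all 6 libraries gave 0 TRBJ, 0 length and 0 residue calls. Each clonotype counted once gave 5 TRBV, 0 TRBJ, 1 pair, 1 length and 5 residue calls. After merging 1-residue variants it gave 0 TRBV, 1 TRBJ, 1 pair, 1 length and 9 residue calls, and with a minimum of 2 reads 4 TRBV, 0 TRBJ, 12 pair, 1 length and 0 residue calls. With the 10 leading clonotypes per library left out the counts were 2 TRBV, 1 TRBJ, 0 length and 4 residue calls, and with 3 residues taken off each CDR3 end 0 residue calls. Leaving out 1 library moved the counts between 0 and 11 for TRBV, 0 and 11 for TRBJ, 0 and 188 for pairs, 0 and 14 for lengths and 0 and 16 for residues. Where a tumor or spleen is left alone, it is assumed to vary like the other group. Reversals were TRBV19 at 0.25 and length 17 at 0.0806 (log2) with clonotypes of at least 2 reads counted once, and lengths 7 and 8 at 0.0601 and 0.11 with merged variants counted once. The cause of these changes was not tested.

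With the replicate number as a block, 2 TRBV, 1 TRBJ, 3 length and 0 residue calls were made, and pairs stayed at 0.

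As tumor minus spleen, middle charge was 0.00853 with the 10 leading clonotypes left out and -0.0432 with 3 residues taken off each end (0.0392 to 0.134 over left-out libraries). The share with hydrophobic positions 6 and 7 was 0.329 percentage points counted once and 0.441 with leading clonotypes left out (-0.274 to 0.178). Internal cysteine was 0.168 points counted once, -2.55 with leading clonotypes left out and -0.166 as a share of the reads of the other TRBV genes (-4.98 to -3.70). Double glycine was 1.58 and 1.37 (6.53 to 16.9). Over left-out libraries mean length ranged from -0.0787 to 0.0692, hydropathy from 0.0679 to 0.450, entropy from -4.27 to -2.96, clonotypes at equal depth from -27791 to -24416 and the top 10 share from 19.5 to 37.5 points. Without clonotypes of 1 read the difference in clonotypes was -15385. Enriched clonotypes of number 1 were 1632, 138, 568 and 427 with a minimum of 5 reads, of 50 reads, at equal depth and at 10-fold or more, and 1346 and 93 of number 2 with the first 2 and 528 at 10-fold or more. With another minimum or depth the tested set is not the 1336 or 938, and the 10-fold counts depend on library depth. The read share of own-spleen clonotypes was 29.5% and 42.0% for numbers 1 and 2 without 1-read clonotypes, 33.6% and 40.1% by CDR3 alone, 34.7% and 48.9% at full depth, and 22.3% and 13.8% with the spleen of the other number.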
